A study of Mus musculus with 6 samples.

Results

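The 10 genes described here encode transcription factors that divide the early brain into midbrain, hindbrain and diencephalon: Otx1, Otx2, En1, En2, Pax3, Gbx2, Lmx1b, Irx3, Irx5 and Zic1. They were taken by symbol, with no threshold on their values, to see how much RNA of neighbouring brain regions each hypothalamic culture held. All 10 were found among the 22048 genes of the RNA-Seq table, and 9 had enough reads to be tested, Lmx1b being the exception. RNA was taken from neurospheres, floating clusters grown from dissociated fetal hypothalamus in medium with EGF and bFGF, at first passage. There were 3 HE and 3 NC samples of C57BL/6 mouse neural stem/progenitor cells (NSC/NPCs) from male fetuses at E14.5. By the paper's methods each sample pooled cells of 2 mice, while the labels say that each group held samples of 2 mice. The paper's reading is used here. HE dams, 8 weeks old, were given estradiol valerate by gavage at 100 μg/kg/d from E5.5 to E11.5. NC dams of the same age were given corn oil over the same days according to the treatment protocol, although the treatment label of these samples reads "untreated". No allele or transgene was involved. The cells were defined by dissection and culture, with no reporter and no sort.

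Along the neural tube, Otx2 marks forebrain and midbrain and Gbx2 marks anterior hindbrain. Where their domains meet, the isthmic organizer forms, which secretes Fgf8 and Wnt1 and maintains En1 and En2 on both sides of the border. Pax3 and Lmx1b act in dorsal neural tube and roof plate, the Iroquois genes Irx3 and Irx5 in caudal diencephalon, midbrain and more caudal tissue, and Zic1 in dorsal neural tube and parts of the forebrain. Gbx2 is also a factor of the developing thalamus, and Zic genes are also expressed in meninges.

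Between 16078675 and 19137059 reads per sample fell on genes, and values are given as RPKM, reads scaled to gene length and to the total of the sample, so levels can be compared between genes. For a gene 1 kilobase long, a single read amounted to 0.0523 to 0.0622 RPKM. Some samples stood apart in marker genes of other cells. HE3 held Sox10, a glial and neural crest factor, at 1.65 RPKM against 13.0 to 16.5 RPKM in the other 5 samples. NC1 held the pituitary hormone precursor Pomc at 302 RPKM against 1.54 to 3.89 RPKM elsewhere. Every sample carried the progenitor markers Sox2, at 97.3 to 209 RPKM, and Nes, at 154 to 247 RPKM. Of 22 hypothalamic marker genes listed, 9 had enough reads to be tested and 12 stayed under 10 reads in every sample. Nkx2-1, which specifies the ventral hypothalamus, was at 1.03 to 3.34 RPKM and Six3, a forebrain factor, at 0.902 to 2.85 RPKM. Rax, an early hypothalamic factor, had 1 to 8 reads, and Otp, a factor of hypothalamic neurons, had a single read in all samples together. Bulk RNA cannot tell fewer cells of a type from less RNA per cell, and this holds for every level below.

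By mean over the 6 samples the genes ordered as Zic1 (20.8 RPKM), Otx2 (15.1 RPKM), Irx5 (4.99 RPKM), Irx3 (4.96 RPKM), En2 (2.89 RPKM), Otx1 (1.40 RPKM), Gbx2 (0.902 RPKM), Pax3 (0.301 RPKM), En1 (0.264 RPKM) and Lmx1b (0.0676 RPKM). The range over samples of each gene overlapped that of its neighbour in this order. Within samples, however, the higher gene of a neighbouring pair was above the lower in 6 of 6 samples for Zic1 and Otx2, Otx2 and Irx5, Irx3 and En2, Gbx2 and Pax3, and En1 and Lmx1b. It was above in 5 of 6 for En2 and Otx1 and for Otx1 and Gbx2, and in 3 of 6 for Irx5 and Irx3 and for Pax3 and En1, pairs that did not differ beyond their spread. Zic1 and Otx2 were at 6.17 RPKM or more in every culture, and Irx3 and Irx5 at 2.22 RPKM or more. Pax3, En1 and Lmx1b lay at a few reads in some samples.

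**Figure D1:**
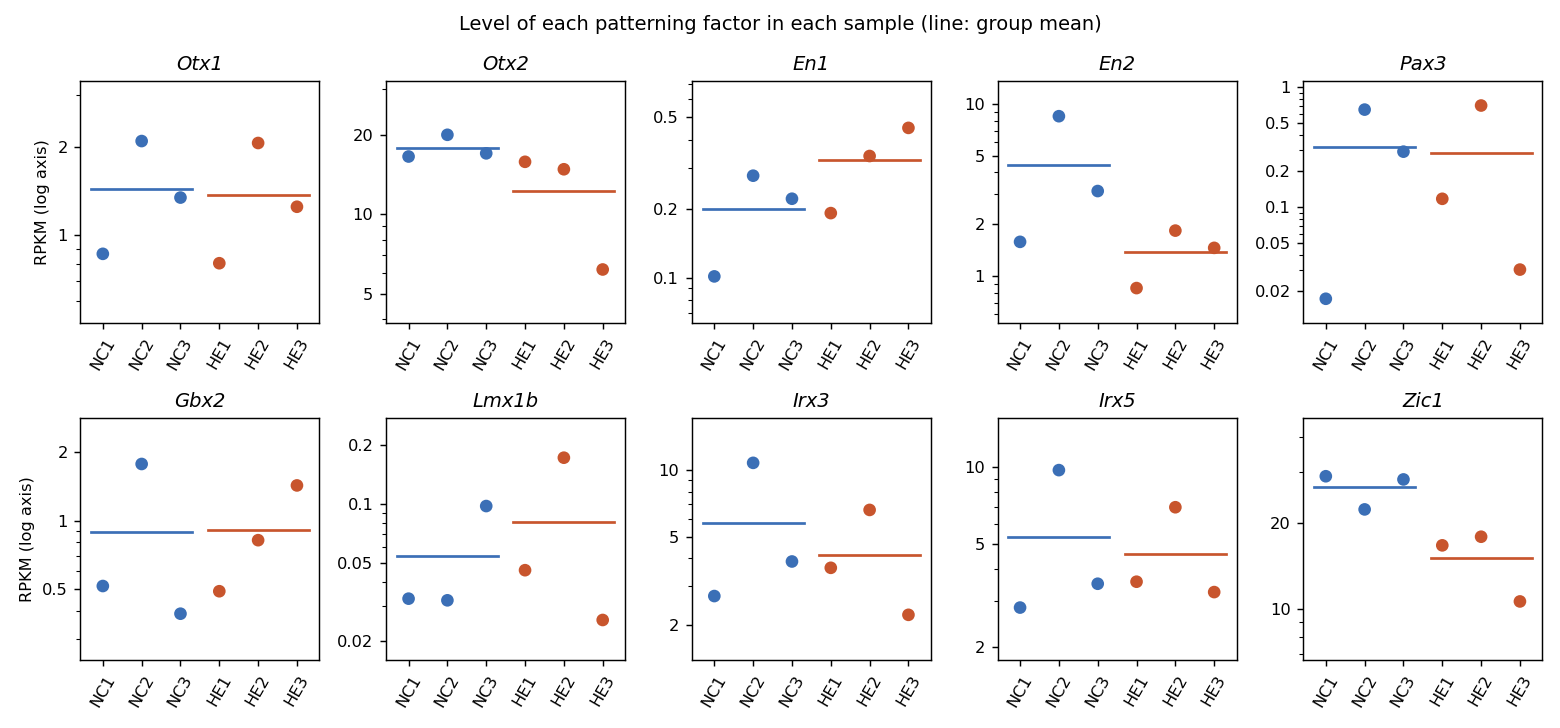
RPKM of the 10 patterning factors (log axis, a scale of its own for each gene) in the 3 NC samples (blue) and the 3 HE samples (orange), with a line at each group mean. The 3 HE points lie below the 3 NC points for Otx2 and Zic1, and NC2 is the highest NC sample for 8 of the 10 genes.

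Samples of the same group differed widely in most of the factors. NC2 held the highest value of the 6 samples in 6 of the 10 genes (Otx1, Otx2, En2, Gbx2, Irx3 and Irx5) and HE2 in 2 (Pax3 and Lmx1b). Within the NC group NC2 was the highest in 8 of 10 genes, and within the HE group HE2 was the highest in 7 of 10. As a mean over the 9 tested genes of the deviation from each gene's 6-sample mean, on the log2(RPKM + 0.1) scale, NC2 stood at 0.91 and HE2 at 0.37. The other samples stood at -0.46 in NC1, 0.03 in NC3, -0.43 in HE1 and -0.42 in HE3. The standard deviation within groups on the same scale had a median of 0.779 over the 9 tested genes, against 0.228 over all 13952 genes tested. It was above the all-gene median in 9 of 9 and above the 90th percentile of all genes (0.556) in 6 of 9. Spread from counting reads alone, taken as Poisson at the mean count, was far smaller for most of them: 0.0927 against a measured 0.903 for Irx3, 0.104 against 0.916 for En2 and 0.243 against 1.36 for Pax3. For En1 the values were 0.408 from counting and 0.469 measured. The counting values leave out the added 0.1 RPKM, which lowers the measured spread of low genes. The En1 values are thus not on the same scale, and their closeness cannot be read as counting error alone.

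Between the groups, 0 of the 9 tested factors met the study's cutoffs of a log2 fold change of 1 and an adjusted p-value of 0.05, as did 0% of all 13952 genes (limma on log2(RPKM + 0.1), Benjamini-Hochberg). The study itself used DESeq2, a different test that was not run here, and reported DE mRNAs in both directions at these cutoffs. At an unadjusted limma p-value under 0.05 there was 1 of 9, Zic1, against 20.5% of all genes tested. Limma's voom on the read counts also called 0 factors. Without NC3, 103 of all genes met the cutoffs, none of them a patterning factor. Otx2 and Zic1 were the only factors of the 9 with groups that did not overlap, both lower in HE. Over all genes tested, 32.7% had groups that did not overlap and 17.9% had every HE value below every NC value, so 2 of 9 is near the background. In the fit 7 of the 9 had lower and 2 higher values in HE. Their median log2 fold change was -0.20, and that of all tested genes was -0.06. Limma's p-values measure the spread between these 3 and 3 pooled samples, and an exact permutation test on single genes cannot go below 0.1 (two-sided). Estradiol was given to the dams, and the paper does not say how many dams or litters the samples came from. Whether the pools were independent units of treatment is thus not known.

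**Figure D2:**
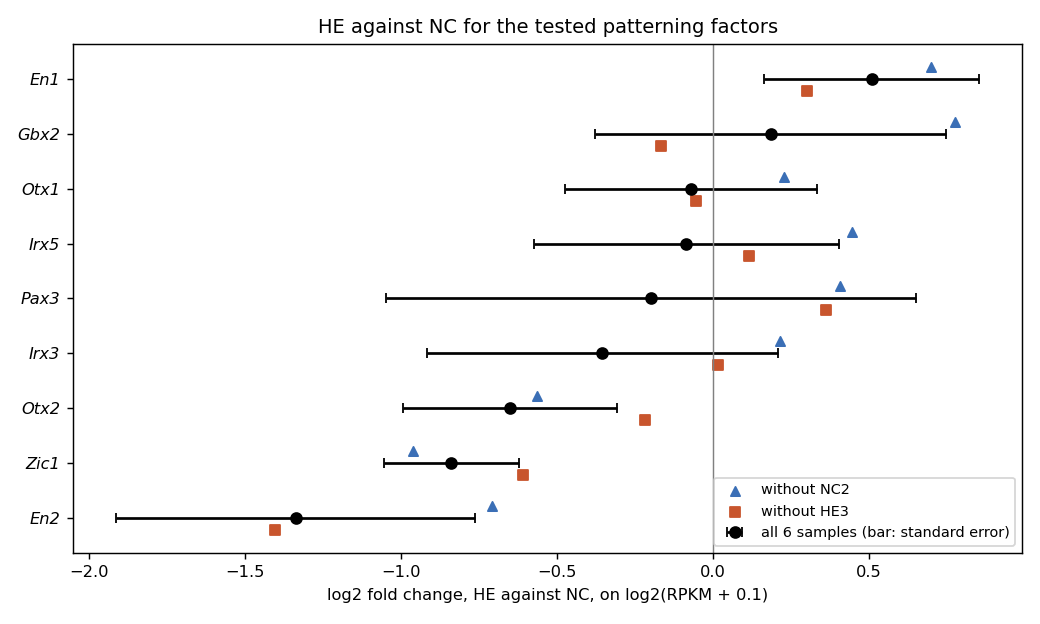
Log2 fold change of HE against NC on the log2(RPKM + 0.1) scale for the 9 tested patterning factors, with all 6 samples (black, bar: standard error from limma), without NC2 (blue triangles) and without HE3 (orange squares). En2 lies farthest to the left at -1.34 and moves to -0.71 without NC2, Otx2 moves from -0.65 to -0.22 without HE3, and Zic1 stays between -0.96 and -0.61.

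The Otx genes encode homeodomain factors that keep forebrain and midbrain fate. Otx2 lies on chromosome 14 (GRCm38.p6, chr14:48656781-48667644). It was at 16.6, 20.03 and 17.0 RPKM in NC1, NC2 and NC3 and at 15.8, 14.8 and 6.17 RPKM in HE1, HE2 and HE3. All HE values lay below all NC values, but HE1 and HE2 lay just under the lowest NC value of 16.6 RPKM and HE3 far under it. NC averaged 17.9 ± 1.88 RPKM and HE 12.3 ± 5.30 RPKM (SD, n = 3), a log2 fold change of -0.65 (standard error, SE 0.34, limma adjusted p = 0.301). Without HE3 the log2 fold change was -0.22. Otx1, which acts beside Otx2 in forebrain and midbrain (chr11:21994764-22001651), was at 0.865, 2.09 and 1.34 RPKM in NC and 0.803, 2.06 and 1.25 RPKM in HE. The 3 values of NC lay close to the 3 values of HE, and the log2 fold change was -0.07 (SE 0.40, limma adjusted p = 0.926). Otx2 thus exceeded Otx1 per length by 4.93 to 19.7 times within a sample.

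Promoter windows, the bases just before an annotated start, were given by RefSeq (GRCm38.p6) for 6 of the 10 genes, in 9 windows: Otx2, En1, Gbx2, Lmx1b, Irx3 and Zic1. Otx2 has 4 of them because it has several annotated starts. A pair is shown since Otx2 and Zic1 were the genes whose groups did not overlap. The first lies before the outermost start (chr14:48667645-48667894, minus strand) and the other before an inner start within the annotated gene (chr14:48665110-48665359, minus strand). Capitals mark TAATTA, a core bound by many homeodomain proteins, TAATCC, the core preferred by Otx and other bicoid-type factors (GGATTA when read on the opposite strand), and GGTCA, the half-site of the estrogen receptor (TGACC on the opposite strand).
Otx2 outer start: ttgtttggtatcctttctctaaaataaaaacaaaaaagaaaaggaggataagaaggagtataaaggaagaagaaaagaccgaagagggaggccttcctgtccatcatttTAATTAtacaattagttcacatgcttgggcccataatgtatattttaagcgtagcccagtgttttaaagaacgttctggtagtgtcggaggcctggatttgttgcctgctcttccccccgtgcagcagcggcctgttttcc
Otx2 inner start: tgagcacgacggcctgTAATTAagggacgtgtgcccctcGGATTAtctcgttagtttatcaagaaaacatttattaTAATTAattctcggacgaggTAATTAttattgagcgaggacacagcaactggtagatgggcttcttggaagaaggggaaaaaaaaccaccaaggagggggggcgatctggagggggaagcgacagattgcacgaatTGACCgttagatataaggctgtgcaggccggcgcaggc
The outer window held 1 TAATTA and the inner one 3 TAATTA, 1 TAATCC and 1 GGTCA half-site. Searched on both strands in all 32851 windows of the RefSeq table, TAATTA was found in 4.84%, TAATCC in 6.25% and GGTCA in 35.2%. The full inverted repeat of the estrogen receptor, GGTCA, 3 bases and TGACC, which contains the half-site on both strands, was in 0.0639% of all windows and in none of the 9. These matches are descriptions of letters and not of binding.

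En1 and En2, paired homeodomain factors of the midbrain and anterior hindbrain, were expressed unequally. En2 (chr5:28165696-28172190) was at 1.58, 8.48 and 3.12 RPKM in NC and at 0.852, 1.84 and 1.46 RPKM in HE. NC2 stood at 2.72 times the next NC sample, and the lowest NC value lay inside the HE range. NC averaged 4.39 ± 3.62 RPKM and HE 1.38 ± 0.497 RPKM (SD, n = 3), a log2 fold change of -1.34 (SE 0.58, limma adjusted p = 0.247). Without NC2 it was -0.71. En1 (chr1:120602487-120607991) had 5, 14 and 11 reads in NC and 9, 17 and 19 reads in HE, or 0.102 to 0.450 RPKM. At these counts the exact Poisson 95% interval of the lowest sample ran from 0.0330 to 0.237 RPKM and that of the highest from 0.271 to 0.703 RPKM, which covers counting error only. The log2 fold change of En1 was 0.51 (SE 0.35, limma adjusted p = 0.395), opposite in sign to that of En2. Per length, En2 exceeded En1 by 15.6, 30.4 and 14.1 times in the NC samples and by 4.45, 5.41 and 3.24 times in the HE samples. This ratio did not overlap between groups, was picked after its values were seen and rests on few En1 reads, so no test was made.

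Over the 6 samples, the gene with the profile nearest to that of En2 was Cnpy1, with a root mean squared difference of 0.379 after each gene's mean of log2(RPKM + 0.1) was subtracted. Adcy8, an adenylyl cyclase, and Ankrd33b followed at 0.580 and 0.584. Only tested genes with a mean of at least 1 RPKM were searched. Cnpy1 begins 28628 bases beyond the end of En2 on the same chromosome (chr5:28200819-28245788). It was at 0.874, 3.41 and 1.78 RPKM in NC and at 0.601, 0.556 and 0.563 RPKM in HE, so its NC samples took the same order as those of En2 and all its HE samples lay below them. The likeness was not tested.

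Gbx2, the hindbrain and thalamus factor (chr1:89927962-89931176), was at 0.514, 1.78 and 0.388 RPKM in NC and 0.487, 0.819 and 1.43 RPKM in HE. NC2 again stood out at 3.46 times the next NC sample, and the groups overlapped fully (log2 fold change 0.18, SE 0.56, limma adjusted p = 0.858). Its centred profile, compared after the values were seen with those of the other factors, Irx1, Irx2, Zic2, Zic4, Zic5, Lhx2, Shox2 and Barhl2, was nearest to the thalamus and pretectum genes Shox2, at a root mean squared difference of 0.267, and Barhl2, at 0.283. Not all genes were searched for Gbx2, and the other tested thalamus and pretectum genes were not compared. A thalamic source of Gbx2 was not tested. Pax3 (chr1:78101267-78197136), a paired box factor of dorsal neural tube and neural crest, had 2, 77 and 34 reads in NC and 13, 83 and 3 reads in HE. These correspond to 0.0172, 0.650 and 0.290 RPKM and to 0.117, 0.703 and 0.0302 RPKM. In RPKM the highest sample held 40.8 times the lowest, which rests on 2 reads. NC1 and HE3 were at or under 3 reads while NC2 and HE2 were near each other at the top, and the log2 fold change was -0.20 (SE 0.85, limma adjusted p = 0.901). Lmx1b, a LIM homeodomain factor of isthmus, roof plate and midbrain dopamine neurons (chr2:33560965-33641208), had 3, 3 and 9 reads in NC and 4, 16 and 2 reads in HE. It was at 0.0255 to 0.172 RPKM, too low for the test, and HE2 held the most.

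The Iroquois factors carried the sample pattern most plainly. Irx3 (chr8:91798511-91801654) was at 2.69, 10.8 and 3.86 RPKM in NC and 3.62, 6.61 and 2.22 RPKM in HE. Irx5 (chr8:92357796-92361456), which begins 556141 bases beyond Irx3 in the same gene cluster, was at 2.84, 9.74 and 3.51 RPKM in NC and 3.58, 6.98 and 3.26 RPKM in HE. NC2 stood at 2.79 and 2.77 times the next NC sample for Irx3 and Irx5, and HE2 was the highest HE sample for both. The log2 fold change was -0.35 (SE 0.56, limma adjusted p = 0.717) for Irx3 and -0.09 (SE 0.49, limma adjusted p = 0.926) for Irx5, and without NC2 they were 0.22 and 0.45. Without HE3 they were 0.02 and 0.12. Within a sample the ratio of Irx3 to Irx5 stayed between 0.679 and 1.11, while each gene ranged over 4.87 and 3.43 times. Irx5 was the gene nearest in profile to Irx3 among all genes searched, at a root mean squared difference of 0.228. The potassium channel gene Kcnn2 followed at 0.252 and A930002H24Rik at 0.287. Irx3, Irx5 and Gabbr2, a GABA receptor subunit gene, were in turn the 3 genes nearest to Pax3, at 0.509, 0.619 and 0.634.

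Irx1 and Irx2, which are no members of the set and lie on chromosome 13, showed the same order of samples at the top. Irx1 was at 7.57, 17.3 and 7.79 RPKM in NC and at 8.59, 16.4 and 8.96 RPKM in HE. Irx2, named after its values were seen, was at 3.31, 11.8 and 4.20 RPKM in NC and at 4.61, 10.3 and 5.496 RPKM in HE. In all 4 of these Iroquois genes NC2 was the highest NC sample and HE2 the highest HE sample. The centred profile of Irx5 was nearer to those of Irx2 and Irx1, at root mean squared differences of 0.188 and 0.200, than to that of Irx3, at 0.228. The likeness was thus not particular to the chromosome 8 pair. Irx4 had 0 to 2 reads per sample and Irx6, which follows Irx5 after 312832 bases, had 0 to 10. The promoter window of Irx3 is shown because Irx3 and Irx5 varied together over the samples (chr8:91801655-91801904, minus strand). It held none of the 4 short motifs searched, among them ACANNTGT, an Iroquois-type palindrome found in 6.31% of all windows, so it has no capitals.
Irx3 start: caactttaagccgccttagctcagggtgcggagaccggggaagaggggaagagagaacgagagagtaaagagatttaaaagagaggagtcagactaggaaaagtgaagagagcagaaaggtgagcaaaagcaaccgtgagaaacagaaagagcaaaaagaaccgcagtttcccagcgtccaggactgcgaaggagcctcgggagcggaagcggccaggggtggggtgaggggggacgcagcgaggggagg

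**Figure D3:**
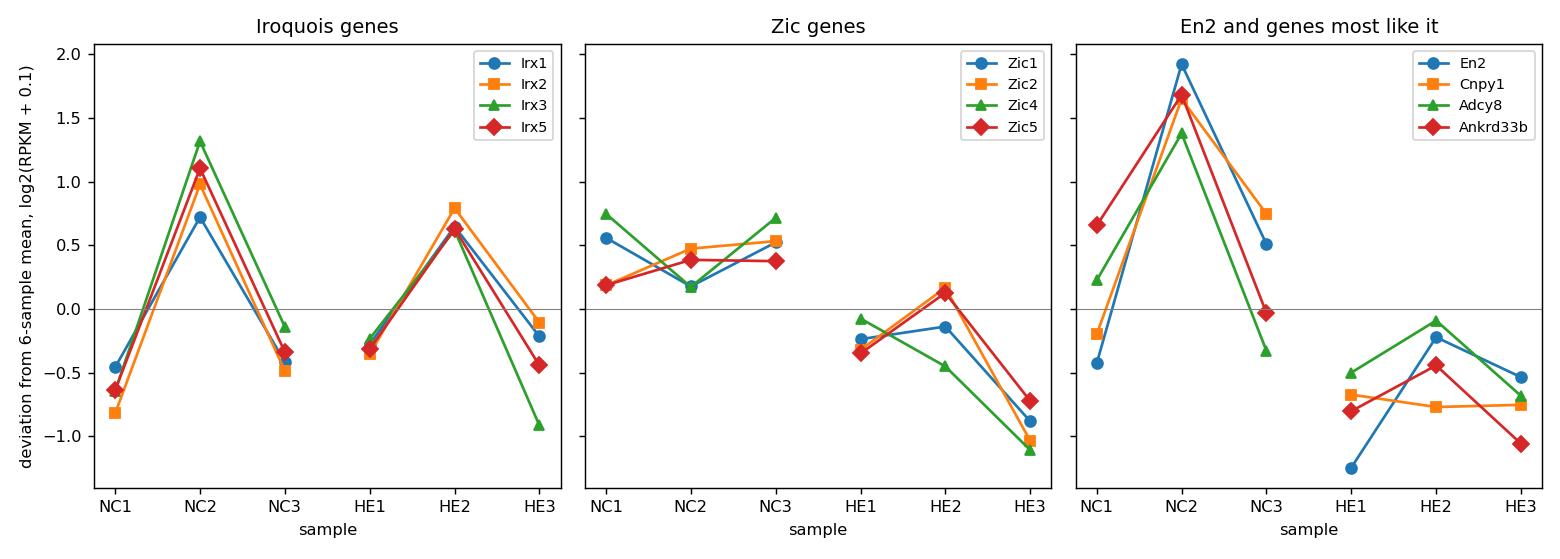
Deviation of each gene from its own 6-sample mean on the log2(RPKM + 0.1) scale, for 4 Iroquois genes (left), Zic1, Zic2, Zic4 and Zic5 (middle) and En2 with the 3 genes nearest to it in profile (right), by sample. The lines only link points of a gene within a group, as replicates have no order. The Iroquois genes peak in NC2 and HE2, the genes of the middle panel lie above 0 in all NC samples and are lowest in HE3, and En2 and the genes near it peak in NC2.

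Zic1, a zinc finger factor of dorsal neural tube and forebrain, was the factor with the highest mean level and the smallest p-value. It lies on chromosome 9 (chr9:91358058-91365768) and was at 29.1, 22.3 and 28.4 RPKM in NC and 16.7, 17.9 and 10.6 RPKM in HE. The lowest NC sample, NC2, was above the highest HE sample, HE2, and unlike in the other abundant factors NC2 was not high. NC averaged 26.6 ± 3.73 RPKM and HE 15.1 ± 3.89 RPKM (SD, n = 3), a log2 fold change of -0.84 (SE 0.22, limma adjusted p = 0.195). The unadjusted limma p was 0.00578, and the exact permutation test gave p = 0.1, the smallest possible here. Among all 13952 genes, 387 had a p-value at or under that of Zic1, and the difference failed the correction. Over the 12 alternatives its log2 fold change ran from -0.98 to -0.61 and its adjusted p from 0.135 to 0.502. HE3 was the lowest sample, as it was for 44.4% of all genes tested, and without it the log2 fold change was -0.61.

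Zic2, Zic4 and Zic5, relatives of Zic1, were lower in HE as well. Zic4 had the largest difference of these 4 genes, with 2.18, 1.43 and 2.13 RPKM in NC and 1.19, 0.893 and 0.530 RPKM in HE, a log2 fold change of -1.09 (SE 0.31, limma adjusted p = 0.195). Zic2 was at 11.9, 14.5 and 15.1 RPKM in NC and 8.32, 11.7 and 5.03 RPKM in HE, a log2 fold change of -0.79 (SE 0.29, limma adjusted p = 0.215). Zic5, named after its values were seen, had a log2 fold change of -0.63. In 4 of these 4 genes the groups did not overlap and the unadjusted limma p was under 0.05, against 17.9% of all genes with every HE value lower and 20.5% with such a p, yet 0 of 4 passed the adjusted cutoff. With a sample left out, an alternative added after the values were seen, the count with such a p ran from 2 to 4 of 4, being 2 without NC2, NC3 or HE1 and 3 without NC1 or HE3. Zic1 and Zic4 kept such a p in each case, while Zic2 lost it without NC2, NC3 or HE1 and Zic5 lost it with each sample left out except HE2. Without HE3 the log2 fold change was -0.47 for Zic2, -0.81 for Zic4 and -0.43 for Zic5. The 4 genes are not independent: Zic2 and Zic5 lie 9725 bases apart on chromosome 14, and Zic1 and Zic4 overlap by 138 bases on chromosome 9. As the use of strand in counting is not given in the sources used here, reads in that overlap could be shared.

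Other markers moved beside these 4 genes. Sox2, the progenitor factor, was at 209, 209 and 195 RPKM in NC and at 176, 172 and 97.3 RPKM in HE, again lowest in HE3. Progenitor markers did not all follow it. Of 12 tested, 9 were lower and 3 higher in HE, against 56.2% and 43.8% of all genes. Groups did not overlap in 4, all lower in HE, against 17.9% of all genes. HE3 was the lowest sample for 5 of the 12 and the highest for 3. Their summed level was highest in HE3, at 4719 RPKM against 2983 to 3746 RPKM elsewhere. Markers of meninges and mesenchyme summed to 83.2, 29.4 and 45.4 RPKM in NC and to 166, 125 and 73.6 RPKM in HE, and 9 of the 9 tested had a higher fitted level in HE, 4 of them without overlap, the opposite direction to Zic1. Of all genes tested 43.8% were higher in the fit and 14.8% were higher without overlap. Markers of telencephalon, the neighbouring forebrain, summed to 44.8, 31.6 and 37.5 RPKM in NC and 29.0, 28.2 and 17.0 RPKM in HE. Of 12 tested, 10 were lower in HE and 3 had an unadjusted limma p under 0.05, all lower, against 56.2% of all genes lower in the fit and 11.8% lower with such a p. Emx2, a dorsal telencephalon factor, was at 5.02, 2.04 and 3.94 RPKM in NC and 1.66, 1.15 and 0.974 RPKM in HE. The part of these markers in the difference of Zic1 and Otx2 was not tested.

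The window before Zic1 (chr9:91365769-91366018, minus strand) lies within the annotated span of Zic4 and is shown for the gene with the clearest separation of groups. It held the most CpG pairs of the 9 windows, 27 against a median of 6 over all windows, and a GC content of 66.0%. It contained 1 GGTCA half-site, in capitals as TGACC, a motif in 35.2% of all windows.
Zic1 start: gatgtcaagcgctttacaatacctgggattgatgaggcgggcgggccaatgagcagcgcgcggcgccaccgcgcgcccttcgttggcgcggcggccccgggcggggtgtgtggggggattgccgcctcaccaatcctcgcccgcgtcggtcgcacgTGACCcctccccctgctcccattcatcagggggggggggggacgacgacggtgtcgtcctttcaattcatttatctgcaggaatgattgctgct

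Genes that define the regions around these factors were taken from lists. Of the FGF and Wnt signals listed for the isthmic organizer, only Fgf18 had enough reads to be tested, and the others were at a few reads. Fgf18, named after its values were seen, had 16, 10 and 15 reads in NC and 8, 18 and 5 in HE. Its log2 fold change was -0.38 (limma adjusted p = 0.542), with overlapping groups. Fgf8 had 0, 2 and 3 reads in NC and 0, 4 and 0 in HE, Fgf17 had 0 to 4 reads in each sample, and Wnt1 had 0, 0 and 5 reads in NC and 1, 8 and 0 in HE. Pax2 had 16, 22 and 4 reads in NC and 2, 5 and 0 in HE, and Pax5 and Pax8 had 0 to 5 and 1 to 7 reads. Pax2 was thus above the floor of 3 reads in all NC samples and highest in NC2, the sample highest in En2, which had 54 to 574 reads. Of the 10 genes of that list 4 were tested, and 1 of them, the FGF feedback gene Spry1, had an unadjusted limma p under 0.05, with an average of 17.9 ± 3.09 RPKM for NC against 27.3 ± 7.72 RPKM for HE (SD, n = 3; log2 fold change 0.59, adjusted p = 0.217). Over all genes tested, 20.5% had an unadjusted limma p under 0.05. The groups overlapped for Spry1 and for Spry2.

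Hindbrain and spinal cord identity, as read from Hox genes, was at the floor. None of the 21 Hox genes listed passed the filter, the highest had 5 reads in any sample, and Hoxd3 and Hoxd4 had 0 reads in all 6. For a count of 0 the limit is 3 reads in that sample. Egr2, which marks hindbrain segments early but is also used by other cells, was at 7.43 to 17.5 RPKM. The dorsal genes of roof plate had 2 of 10 tested, Msx1 and Lmx1a, and 7 of 10 stayed under 10 reads in every sample. In the ventral midbrain list 5 of 10 were tested. Nr4a2, a factor of dopamine neurons, was at 1.06, 1.21 and 1.09 RPKM in NC and 0.633, 0.840 and 0.490 RPKM in HE, a log2 fold change of -0.72 without overlap of the groups (adjusted p = 0.195 in limma).

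Thalamus and pretectum genes differed among themselves in their sample order. Of the 6 tested, NC2 was the highest of all samples in 3, HE2 in 2 and HE1 in 1. Barhl2, a factor of the caudal diencephalon, was at 4.17, 10.95 and 3.54 RPKM in NC and 3.64, 7.48 and 6.72 RPKM in HE. Shox2 was at 0.322, 1.26 and 0.430 RPKM in NC and 0.422, 0.918 and 1.11 RPKM in HE. In both, NC2 was highest of all samples. Foxp2, by contrast, was lowest in NC2 among the NC samples, at 0.112 RPKM. Of the 6 tested genes 0 had an unadjusted limma p under 0.05 and 0 had groups that did not overlap. Over all genes tested these shares were 20.5% and 32.7%, so 0 of 6 says little. The telencephalic factor Lhx2 ran the other way, at 10.2, 1.77 and 9.49 RPKM in NC and 5.17, 2.23 and 1.36 RPKM in HE. Not every gene of its list did. Nr2f1, the tested gene of that list with the highest mean, was highest in NC2 and HE2 within their groups. It was at 9.40, 18.6 and 9.62 RPKM in NC and 12.3, 15.7 and 9.53 RPKM in HE. Of the 12 telencephalic genes tested, NC1 was the highest of all samples in 7 and NC2 in 1. Within a sample the ratio of Irx3 to Lhx2 was 0.265, 6.09 and 0.407 in NC and 0.699, 2.96 and 1.63 in HE. NC2 therefore held more Irx3 than Lhx2 per length while NC1 and NC3 held less. As a list, telencephalic genes deviated by 0.94, -0.23 and 0.57 in NC and by 0.12, -0.26 and -1.14 in HE on the log2(RPKM + 0.1) scale.

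**Figure D4:**
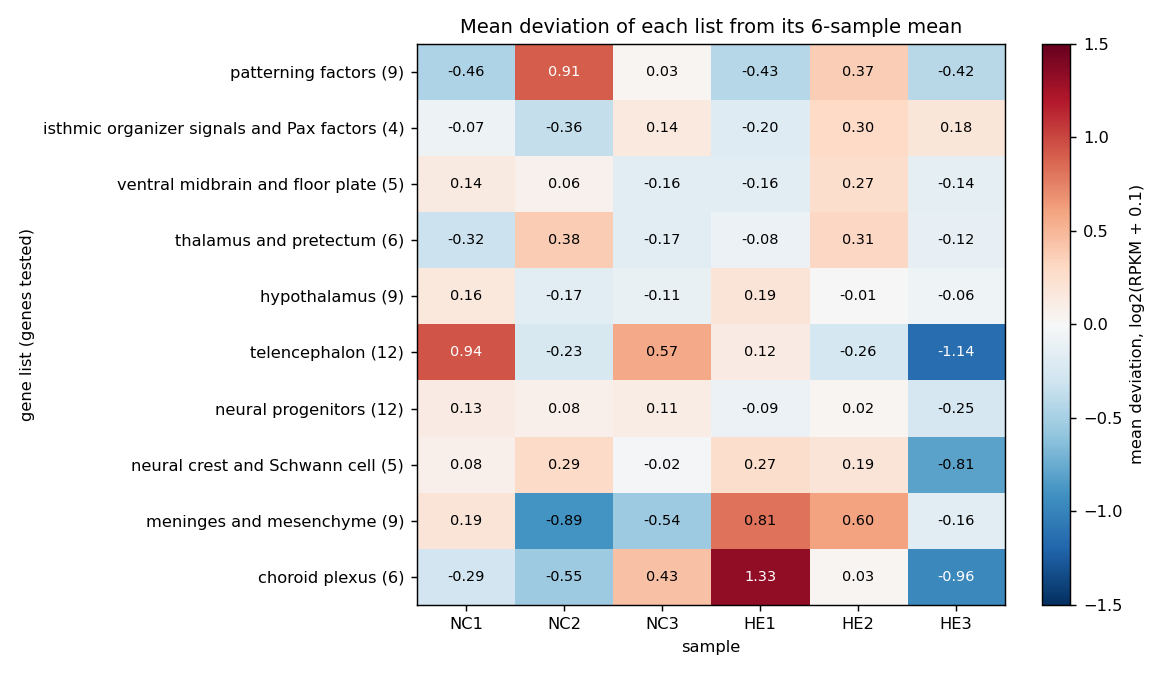
Mean deviation of each gene list from its 6-sample mean (log2(RPKM + 0.1) units, red above and blue below, value printed in each cell) by sample, for 10 lists with at least 4 tested genes each, whose number stands in brackets. The patterning factors reach 0.91 in NC2 and 0.37 in HE2, and telencephalic genes reach 0.94 in NC1 and -1.14 in HE3.

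The hypothalamic list had mean deviations of 0.16, -0.17 and -0.11 in NC and 0.19, -0.01 and -0.06 in HE, a mean over genes that moved in opposite directions. Of its 9 tested genes 5 were higher in HE, all 5 without overlap, against 14.8% of all genes with every HE value higher. The other 4 were lower in HE and overlapped. Sp8, a zinc finger factor named after its values were seen, had the largest difference of the list, a log2 fold change of -2.31 (SE 0.70, limma adjusted p = 0.195), and Vax1 followed among the lower genes at -0.87. Foxb1, a factor of the mammillary hypothalamus and caudal diencephalon, was at 0.232, 1.14 and 0.531 RPKM in NC and 1.33, 3.76 and 2.79 RPKM in HE, a log2 fold change of 1.98 (adjusted p = 0.195 in limma). Nkx2-2, which lines the border of the ventral domain, was at 2.24, 2.24 and 2.41 RPKM in NC and 3.09, 3.57 and 3.35 RPKM in HE. Markers of choroid plexus, led by Ttr, summed to 54.8, 49.5 and 205 RPKM in NC and 440, 75.6 and 20.7 RPKM in HE, and those of pituitary to 304 RPKM in NC1 and 1.81 to 4.09 RPKM elsewhere. Their part in the levels of the factors was not tested. Of neural crest markers, beside Pax3, 5 of 10 were tested and Sox10 was lowest in HE3. In the fit 2 of the 5 were higher in HE and 3 lower. Groups did not overlap in 2 of the higher and 1 of the lower genes, against 14.8% and 17.9% of all genes tested. Of 7 skeletal muscle precursor genes, another lineage of Pax3, 1 was tested (Des) and 5 stayed under 10 reads in every sample.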

How the data were processed

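Libraries were poly-A enriched and strand-specific. After quality filtering and adaptor removal, the authors mapped the reads with TopHat2 to mm10 (build from the submitters' processing notes) and counted them per gene. The counting tool, annotation and strand setting are not given in the sources used here. The deposited table holds raw read counts and RPKM, which the authors computed from count, gene length and sample total. The values fit this formula within 4.99e-07. Counts are written with commas and were recorded under the unit "other". Voom was run on them as an alternative, but count models such as the study's were not run. The deposited RPKM were tested instead, with limma 3.58.1 (R 4.3.3), a mean-variance trend, group as the only term and log2(RPKM + 0.1), which understates the change of low genes. Tests covered genes with, in 3 or more samples, the rate of 10 reads per library of median total and with 15 reads or more over all samples. This kept 13952 of 22048 genes, and symbols were found for 21781. The fit was tested on simulated data. Coordinates and promoter windows are those of RefSeq for GRCm38.p6.

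The 10 genes, the lists and the naming rule were chosen with earlier results of these data known. Named were all 10 genes and, of each list, the 2 tested genes with the highest mean, the 2 with the smallest p-value and those at 0 reads in every sample, besides a fixed set of organizer, hypothalamic and progenitor genes. For the 3 tested factors with the widest range over samples, the 3 nearest profiles were named. Other genes were named after their values were seen, and some results for single genes are left out of this text. The labels name one Illumina sequencer and the methods another.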

Additional observations from a re-analysis of the deposited data

How the results depend on the processing

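For the 9 tested factors 106 fold changes were recomputed under 12 alternatives: a pseudocount of 1, no filter beyond 1 read, median-of-ratios scaling, a minimum of 10 reads in each sample, voom on the read counts, the replicate number as a block and each sample left out. Direction and side of the threshold held in 94, and 12 reversed, all with a sample left out. Without a sample the log2 fold change ran from -0.39 to 0.24 for Otx1, -0.95 to 0.41 for Pax3, -0.77 to 0.22 for Irx3, -0.43 to 0.45 for Irx5 and -0.19 to 0.78 for Gbx2. The signs of these 5 factors thus rest on single samples, and NC2 turned 4 of them. Leaving out HE3 also turned Pax3, Gbx2, Irx3 and Irx5, and leaving out HE1 turned Otx1 and Irx5. Gbx2 turned without NC1 or NC3 as well. The median over the 9 ran from -0.75 to 0.23. The number of DE mRNAs over all genes ran from 0 to 103 with a sample left out. It was 103 without NC3 (7 higher and 96 lower, smallest adjusted p = 0.0025), none of them a patterning factor, and 0 under the other alternatives. The cause was not tested.

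Factors with an unadjusted p under 0.05 ran from 1 to 2 with a sample left out, En2 joining Zic1 without NC1 and Otx2 without HE1. With the replicate number as a block there were 2, Zic1 and En2, the latter with a limma adjusted p = 0.121. The numbers were not taken as pairs, since deviations of same-numbered samples correlated at 0.156, 0.0869 and 0.0603 over 13952 genes, not all above 0.1. Every sample correlated best with its own number, a hint from the data and not the design. The block called 0 DE mRNAs. Lmx1b had a log2 fold change of 0.17 (adjusted p = 0.791 in limma) where no filter was set. Factors at a few reads (Pax3, En1, Lmx1b) and the organizer genes are limited by depth.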
